A study of Mus musculus with 32 samples.

Results

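The cytosolic ribosomal protein genes are the nuclear genes whose symbols begin with Rpl, for the large subunit of the ribosome, or Rps, for the small subunit, together with Rplp0, Rplp1, Rplp2 and Rpsa. They were followed in GAS muscle, the gastrocnemius of the calf, after its nerve supply was cut. Protein-coding genes with these symbols were taken from the table of 33397 genes, and the Rps6k kinases and 5 pseudogenes that share the pattern were left out. This gave 83 genes, of which 51 belong to the large subunit and 32 to the small subunit. The mice were males between 6 and 8 weeks old, C57BL/6 by the labels and C57BL/6J by the methods, in which a piece of the left sciatic nerve was removed. The 7 denervated groups D1, D3, D5, D7, D14, D21 and D28 were collected at 1, 3, 5, 7, 14, 21 and 28 d post denervation, and D0 is the group collected at 0 d, with 4 samples in each group and 32 samples in all. The labels give the transection as the treatment of every sample, D0 included, whereas the methods describe a sham group operated without transection, so D0 is called here only by its day. No transgene or second agent was used in these groups, and the labels do not tie a sample to an animal, so p-values measure the spread between samples within groups. In the limma fits this spread was estimated for each gene over all 8 groups together.

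A cytosolic ribosome is built from ribosomal RNA and a copy of each ribosomal protein, so the genes for these proteins are usually transcribed together. Most of their mRNAs begin with a C followed by a run of C and T letters, the terminal oligopyrimidine tract, through which mTOR and LARP1 control their translation. Skeletal muscle is unusual in that it also makes Rpl3l, a muscle-specific relative of Rpl3, the large subunit protein that lies near the peptidyl transferase centre. The comparisons ask which of these genes changed after denervation, on which day, and whether the subunits and the paralogues moved alike.

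Transcription start sites were found for 63 of the 83 genes in RefSeq (GRCm38.p6), and the sequence around the start is shown for genes that hold the tract and for Rpl3l, which does not. Each line gives 15 bases before and 15 bases from the start, 5′ to 3′ on the gene's strand, and capitals mark the unbroken run of C and T that covers the start.
Rps6 (chr4:86857353-86857382, minus strand): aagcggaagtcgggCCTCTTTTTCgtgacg
Rplp2 (chr7:141447636-141447665, plus strand): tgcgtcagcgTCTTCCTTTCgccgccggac
Rps21 (chr2:180257364-180257393, plus strand): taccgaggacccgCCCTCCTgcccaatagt
Rps27 (chr3:90213634-90213663, minus strand): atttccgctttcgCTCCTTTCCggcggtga
Rpl35 (chr2:39005117-39005146, minus strand): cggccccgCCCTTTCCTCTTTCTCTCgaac
Rpl15 (chr14:18270972-18271001, minus strand): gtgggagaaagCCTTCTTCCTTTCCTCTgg
Rpl3l (chr17:24727811-24727840, plus strand): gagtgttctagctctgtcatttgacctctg

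The run covering the start was 18 bases long in Rpl35, 17 in Rpl15, 10 in Rps6 and Rplp2, 9 in Rps27 and 7 in Rps21, whereas the Rpl3l start shown was a G. RefSeq lists a further Rpl3l start downstream (window chr17:24732670-24732699), which was not covered by a run of C and T either. A further Rps21 start (window chr2:180257434-180257463) was a T and held no tract. A start with C followed by 4 letters that were each C or T was found in 13 of the 63 genes (20.6%), against 3.01% of the 27025 genes in the same RefSeq table. Annotated starts can lie some bases away from the start used in muscle, so the absence of the tract at a listed start says only that these letters are not there. Within the 300 bases from 250 before to 50 after the start, searched on both strands, CCGGAAG, a core that ETS factors bind, was present in 26 of the 63 genes (41.3%, against 9.93% of all genes). ATGGCGG, a core of YY1 sites, was present in 11 (17.5%, against 4.69%), and GGGCGG, the GC box of SP1, in 39 (61.9%, against 38.2%). TATAAA was present in 7 (11.1%, against 15.7%), CACGTG in 6 (9.52%, against 8.09%), and CANNTG, the E-box of the myogenic factors, which also covers CACGTG, in 31 (49.2%, against 74.99%). The core of MEF2 sites was present in 0 of the 63 genes and in 4.23% of all genes.

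The 250 bases upstream of Rpl3l are shown because this gene moved against the family, with the CANNTG matches in capitals, beside the 250 bases upstream of Rps6, with its CCGGAAG match in capitals. Both are read 5′ to 3′ on the gene's strand, from chr17:24727576-24727825 and chr4:86857368-86857617 of GRCm38.p6.
Rpl3l: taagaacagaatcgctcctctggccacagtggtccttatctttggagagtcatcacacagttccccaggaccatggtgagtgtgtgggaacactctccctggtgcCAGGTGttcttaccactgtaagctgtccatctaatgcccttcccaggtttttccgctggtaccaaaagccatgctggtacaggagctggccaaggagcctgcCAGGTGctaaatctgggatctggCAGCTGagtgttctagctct
Rps6: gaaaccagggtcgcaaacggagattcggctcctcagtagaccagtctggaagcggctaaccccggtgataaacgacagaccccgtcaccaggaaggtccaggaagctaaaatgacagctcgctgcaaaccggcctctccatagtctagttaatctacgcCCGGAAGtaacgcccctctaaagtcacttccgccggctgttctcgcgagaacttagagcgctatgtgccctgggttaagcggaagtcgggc

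The Rpl3l stretch held 3 CANNTG matches and the Rps6 stretch held 1 CCGGAAG match. The 250 bases upstream of the downstream Rpl3l start (chr17:24732435-24732684), not shown, held 1 CANNTG match. A match describes letters and does not show that a factor binds there.

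Expression was given as FPKM, fragments scaled by exon length and by the fragments of the sample, with 14199902 to 17561584 fragments per sample recovered from the values. Muscle fibre markers were the most abundant of the marker lists in every group (summed FPKM of 12 genes, median 55631 in D0 and 31655 in D3), and 8 photoreceptor genes, checked because the extraction protocol in the labels names retina, summed to at most 0.546 FPKM in any sample. Over 8 macrophage genes the summed level ran from 84.1 to 119.7 FPKM in D0 and from 234.1 to 588.9 in D3. Over 6 satellite cell and myoblast genes it ran from 14.7 to 19.97 in D0 and from 226.3 to 313.9 in D3, with no macrophage or myoblast gene at 0. By the limma rule given below, 8 of the 8 macrophage genes and 3 of the 6 myoblast genes were higher in D3, against 13.2% of all tested genes. The median differences were 1.45 and 0.69 on the log2(FPKM + 1) scale, so the myoblast sum was carried by part of its list. Over 6 fibroblast genes the summed level ran from 392.3 to 521.5 in D0 and from 251.0 to 619.7 in D3, while 6 endothelial genes (85.2 to 96.7 and 50.2 to 72.5) and 6 Schwann cell genes (128.4 to 274.0 and 20.8 to 54.3) were lower in D3. The 5 lymphocyte genes summed to at most 1.15 FPKM. The part of these cell types in the results on ribosomal protein genes was not tested, and in whole muscle a change in the cells present and a change in the RNA of each cell cannot be told apart. The sample D3a stood apart from the other 3 samples of its group on the first principal component of all genes (-20.3, against 0.18 to 5.96), and results at 3 d are therefore also given without it.

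In FPKM as deposited, the median of the ribosomal protein genes at 1 d post denervation was at the D0 level, and at 3 d most of them had risen. The median difference from D0 on the log2(FPKM + 1) scale was -0.00 in D1, 0.79 in D3, 0.80 in D5, 0.83 in D7, 0.91 in D14, 0.79 in D21 and 0.94 in D28. Over all genes whose mean FPKM was 10 or more, the median difference on those days lay between 0.08 and 0.41. Among the 75 members whose mean FPKM was 10 or more, Rpl3 and Rpl3l aside, the lower and upper quartiles at 3 d were 1.64-fold and 1.90-fold and the median was 1.77-fold.

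A gene was called higher or lower when its limma adjusted p was under 0.05, over the 22071 genes tested, and the difference was at least 1.5-fold on the log2(FPKM + 1) scale. All 83 members were among the genes tested. At 1 d, 0 members were called higher and 0 lower, when 6.34% and 2.49% of all tested genes were called higher and lower; at an unadjusted p under 0.05, 10 members were higher (25% of all tested genes) and 6 lower (12.1%), and limma-voom on the recovered fragments called 4 higher (11.3%) and 0 lower (5.13%). The members' shares were below those of all genes by each of these rules. At 3 d, 70 members were called higher (13.2% of all tested genes) and 1 lower (6.03%), and without D3a the counts were 72 and 1. At 5 d the counts were 68 (14.9%) and 1 (3.86%), and at 7 d they were 69 (15.4%) and 1 (4.1%). In D14, 73 members were higher (14.6%) and 1 lower (3.83%), in D21 69 (11.8%) and 1 (3.93%), and in D28 73 (14.2%) and 1 (4.1%). The lower gene was Rpl3l on each of these days. By adjusted p alone, with no fold limit, 5 members were higher (20.4% of all tested genes) and 3 lower (9.01%) in D1, 79 (29.0%) and 1 (14.3%) in D3, and 80 (36.1%) and 1 (9.52%) in D5. The counts were 78 (37.1%) and 1 (10.1%) in D7, 77 (38.0%) and 1 (9.25%) in D14, 77 (31.7%) and 1 (10.1%) in D21, and 77 (37.8%) and 1 (9.85%) in D28. These comparisons share the 4 D0 samples.

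**Figure D1:**
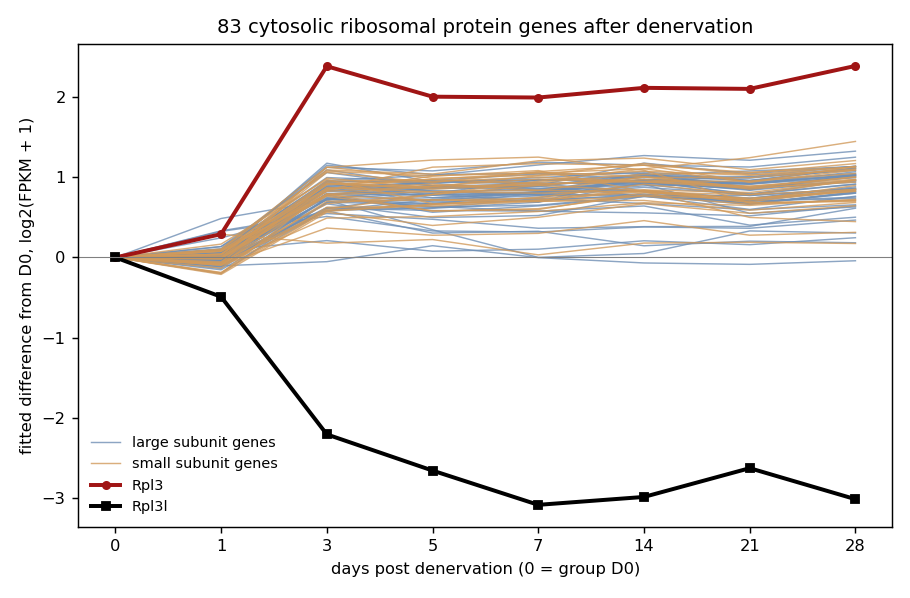
Difference from D0 fitted by limma, on the log2(FPKM + 1) scale (vertical axis), for each of the 83 ribosomal protein genes by day post denervation (horizontal axis, days evenly spaced); thin lines are large and small subunit genes. Most lines stay near 0 at 1 d and lie between about 0.5 and 1.2 from 3 d on, with Rpl3 above them at 2.39 and Rpl3l below at -2.21 at 3 d.

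The rise lay between the first and the third day. D3 was higher than D1, without use of the D0 samples, for 74 members (6.63% of all tested genes) and lower for 1, Rpl3l (3.93%), with a median difference of 0.83 on the log2(FPKM + 1) scale. By adjusted p alone the counts were 77 (17.2%) and 1 (13.7%). From 3 to 14 d, 0 members were called higher (6.88% of all tested genes), and 2 were called lower, Rpl3l and Rpl22l1 (3.57%). At an unadjusted p under 0.05, 20 were higher (28.5%) and 11 lower (13.2%), and by limma-voom 0 were higher (15.6%) and 3 lower (5.52%). From 14 to 28 d, 0 were called higher (0.512%) and 0 lower (0.471%), with 2 higher (6.41%) and 3 lower (7.74%) at an unadjusted p under 0.05, and 0 higher (0.939%) and 0 lower (0.689%) by limma-voom. Of the 83 genes, 61 were called higher on all 6 days from 3 to 28 d (5.92% of all tested genes), 76 on at least 1 day (25.7%) and 7 on no day.

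The same picture was seen in the single samples. All 4 samples lay above every D0 sample for 78 of the 83 genes at 3 d (23.0% of all tested genes) and for 79 in D5 (35.9%), 77 in D7 (32.4%), 76 in D14 (36.8%), 78 in D21 (32.9%) and 78 in D28 (36.6%). At 1 d this held for 2 genes, Rpl22l1 and Rpl7l1 (19.9%). Rpl3l was the single gene of the family with all samples below every D0 sample, and it was so on each of the 7 days (between 8.13% and 12.3% of all tested genes).

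As a share of summed FPKM, the 83 genes held 2.18% ± 0.131 (SD, n = 4) in D0, 2.31% ± 0.198 in D1 and 4.16% ± 0.314 in D3. The share was 4.13% ± 0.172 in D5, 4.28% ± 0.298 in D7, 4.51% ± 0.126 in D14, 4.08% ± 0.207 in D21 and 4.49% ± 0.082 in D28. The lowest of the 24 samples from D3 to D28, at 3.72%, was D3a, and the highest D0 sample was at 2.35%. Over the same days the 16 genes of the mitochondrial genome held a smaller share, with 33.0% ± 2.39 of summed FPKM in D0, 24.4% ± 2.89 in D3, 17.4% ± 2.11 in D14, 22.7% ± 1.5 in D21 and 22.0% ± 1.91 in D28. When the mitochondrial genes were left out of the total, the ribosomal protein share was 3.26% ± 0.215 in D0, 3.28% ± 0.122 in D1, 5.50% ± 0.223 in D3 and 5.76% ± 0.212 in D28. The 77 genes for mitochondrial ribosomal proteins, which build the separate ribosome of that organelle, held 0.347% ± 0.017 in D0, 0.375% ± 0.005 in D3 and 0.418% ± 0.011 in D5.

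**Figure D2:**
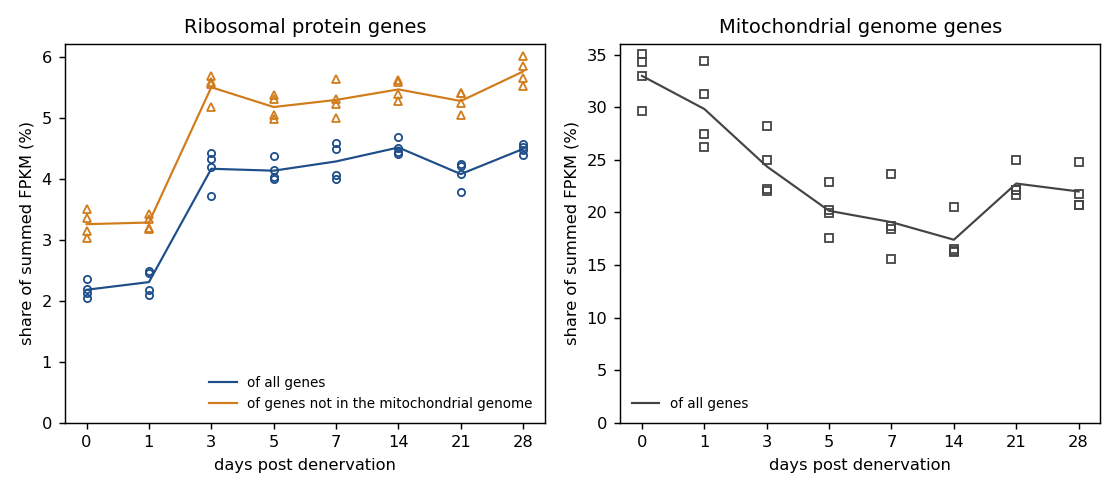
Share of summed FPKM in each sample (points) and group mean (lines) by day post denervation, for the 83 ribosomal protein genes (left, of all genes and of genes outside the mitochondrial genome) and for the 16 mitochondrial genome genes (right). The ribosomal protein share stays near 2.2 to 2.3% of all genes in D0 and D1 and is 3.72% or more in every later sample, while the mean mitochondrial share is 33.0% in D0, 17.4% at 14 d and 22.0% at 28 d.

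The size of the rise depended on how the samples were put on a common scale. FPKM is set relative to all fragments of a sample, and genes whose mean FPKM was 1 or more had a median difference from D0 of 0.12 to 0.32 on the log2 scale over the 7 days. After median-ratio scaling, which sets the typical gene to no change, the median of the members was -0.18 in D1, 0.57 in D3, 0.43 in D5, 0.45 in D7, 0.53 in D14, 0.49 in D21 and 0.56 in D28. The direction from 3 d on was the same, and fewer genes passed the 1.5-fold limit. On that scale 7 of the 83 members had a positive difference at 1 d, 0 members were called higher in D1 (4.14% of all tested genes) and 1 lower, Rpl3l (4.68%). In D3, 40 members were called higher (9.0%), in D5 11 (6.7%), in D7 20 (7.15%), in D14 26 (6.56%), in D21 29 (6.43%) and in D28 38 (6.57%). Rpl3l was the 1 lower member each time, when 9.15%, 7.68%, 7.92%, 7.53%, 7.15% and 8.11% of all tested genes were lower. The members called higher on all 6 days were then 7 (2.49% of all tested genes), namely Rpl3, Rpl10, Rpl19, Rps18, Rps26, Rps27a and Rps28, and those called on at least 1 day were 54 (15.8%). From 1 to 3 d the rise was nearly as large on that scale (median 0.78), with 73 members higher (6.2% of all tested genes) and 1 lower (4.6%). D14 against D3 gave 0 higher (4.46%) and 2 lower (5.39%) on that scale, and D28 against D14 gave 0 higher (0.512%) and 0 lower (0.408%). For all tested genes called at 3 d, 68.7% were higher as deposited and 49.6% after median-ratio scaling.

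**Figure D3:**
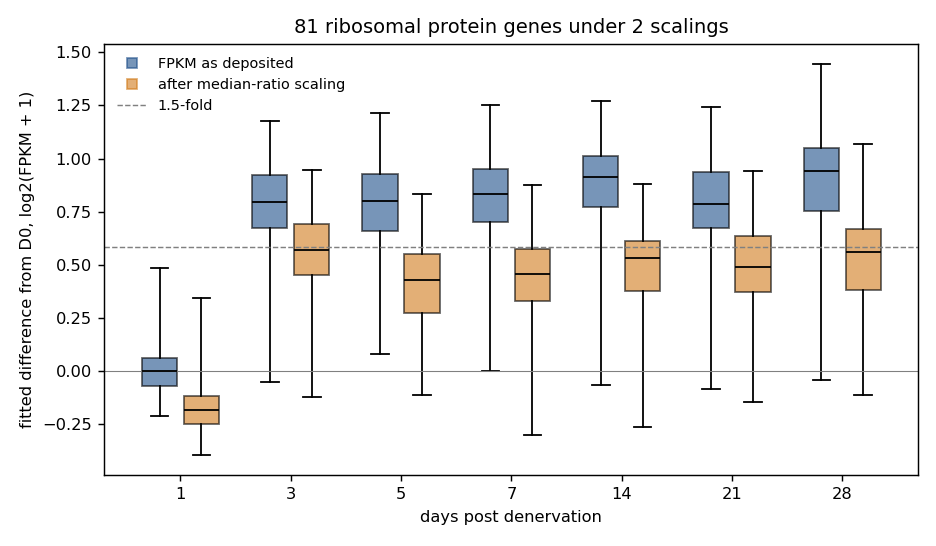
Fitted difference from D0 on the log2(FPKM + 1) scale (vertical axis) for 81 ribosomal protein genes, Rpl3 and Rpl3l left out, by day post denervation, from FPKM as deposited and after median-ratio scaling; boxes span the middle of the genes, whiskers the whole range, and the dashed line marks 1.5-fold. On both scales the boxes lie above 0 from 3 d on, and after median-ratio scaling their medians sit below the dashed line.

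The large and the small subunit had similar medians. The median difference from D0 was 0.79 for the large and 0.83 for the small subunit at 3 d, on the log2(FPKM + 1) scale. It was 0.78 and 0.84 at 5 d, 0.82 and 0.90 at 7 d, 0.91 and 0.93 at 14 d, 0.79 and 0.80 at 21 d, and 0.92 and 0.95 at 28 d. Of the 51 large subunit genes, 43 were called higher at 3 d and 44 at 28 d, and of the 32 small subunit genes, 27 and 29 (13.2% and 14.2% of all tested genes). Those called on all 6 days were 37 large and 24 small subunit genes (5.92% of all tested genes). The summed FPKM of the large subunit divided by that of the small subunit was 1.37 ± 0.008 (SD, n = 4) in D0, 1.37 ± 0.012 in D1, 1.35 ± 0.008 in D3, 1.33 ± 0.007 in D5, 1.31 ± 0.012 in D14 and 1.33 ± 0.009 in D28. No test was made of this ratio, and Rpl3l, which fell, is counted in its numerator. Rpl3l made up 263.7 of the mean 5157 FPKM of the large subunit in D0 and 56.3 of 8673 in D3. The small subunit was at 3760 and 6443 FPKM, so without Rpl3l the ratio does not fall from D0 to D3.

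Rpl3l and Rpl3 exchanged places. Rpl3l (chr17:24727820-24736143, plus strand, GRCm38, 12 exons) was at 269.2, 281.1, 276.0 and 228.5 FPKM in the 4 D0 samples, where Rpl3 (chr15:80077791-80091868, minus strand, 9 exons) was at 40.6, 34.9, 31.9 and 30.04 FPKM. At 1 d Rpl3l was at 179.5, 181.1, 205.3 and 182.3 FPKM and Rpl3 at 40.4, 31.7, 44.8 and 54.1. The Rpl3l samples of 1 d thus lay below all those of D0 and those of Rpl3 overlapped them. At 3 d Rpl3l was at 64.3, 57.9, 52.3 and 50.9 FPKM and Rpl3 at 138.6, 200.9, 199.3 and 200.5, so that Rpl3 exceeded Rpl3l in each sample.

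By limma, Rpl3 was 0.29 ± 0.11 (SE) above D0 at 1 d on the log2(FPKM + 1) scale (adjusted p = 0.055), 2.39 ± 0.11 above it at 3 d (adjusted p = 2.9e-16) and 2.39 ± 0.11 above it at 28 d (adjusted p = 4.05e-16), a 5.22-fold and a 5.24-fold rise. Without D3a, the Rpl3 difference at 3 d was 2.52. Rpl3l was 0.49 lower at 1 d (-0.49 ± 0.10, adjusted p = 0.0003, short of 1.5-fold), -2.21 ± 0.10 at 3 d (adjusted p = 1.1e-16) and -3.09 ± 0.10 at 7 d (adjusted p = 1.5e-19). After median-ratio scaling the 1 d value of Rpl3l was -0.68 and passed the 1.5-fold limit. The fall of Rpl3l went on after 3 d, with group means of 56.3 FPKM in D3, 40.8 in D5, 30.2 in D7, 32.3 in D14, 41.7 in D21 and 32.1 in D28. All 4 samples of D21 (lowest 40.2 FPKM) lay above those of D7 and D14 (highest 36.0), a difference that was not tested. D14 was below D3 by limma (-0.78 ± 0.10, adjusted p = 4.3e-07). Rpl3 was at 140 ± 6.82, 139 ± 3.96, 152 ± 9.06, 150 ± 7.09 and 183 ± 4.38 FPKM (SD, n = 4) in D5, D7, D14, D21 and D28.

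The log2 ratio of Rpl3l to Rpl3, each with 1 added to its FPKM, was 2.91 ± 0.158 (SD, n = 4) in D0 and 2.13 ± 0.305 in D1. It was -1.69 ± 0.400 in D3, -1.76 ± 0.108 in D5, -2.17 ± 0.108 in D7, -2.20 ± 0.041 in D14, -1.82 ± 0.093 in D21 and -2.50 ± 0.306 in D28. All 4 samples of each day lay below all D0 samples, and the two-sided exact permutation test gave p = 0.0286 for each of the 7 comparisons, the smallest that 4 samples against 4 allow, with the same value after Benjamini-Hochberg adjustment over the 7. The ratio was 1.72-fold lower at 1 d, 24.1-fold at 3 d, 33.9-fold at 7 d and 42.4-fold at 28 d. Scaling between samples hardly enters this ratio, since both genes are read in the same sample. As a share of the pair's summed FPKM, Rpl3l was 88.5% ± 1.16 in D0, 81.5% ± 3.29 in D1, 23.8% ± 5.36 in D3 and 14.9% ± 2.84 in D28. The sum of the pair, which was not tested, was at 298 ± 26.6 FPKM in D0, 241 ± 25.7 in D3, 169 ± 6.20 in D7 and 215 ± 6.25 in D28. Both share and sum depend on the exon models, since FPKM divides by 3175 bases for Rpl3 and 1643 for Rpl3l. In fragments, Rpl3l was at 6815, 6893, 6921 and 5960 in D0 and 742, 733, 926 and 1179 in D28. Rpl3 was at 1986, 1654, 1548 and 1514 fragments in D0 and 9947, 9647, 9828 and 9922 in D28. The lower sum in D28 is thus not seen in fragments.

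**Figure D4:**
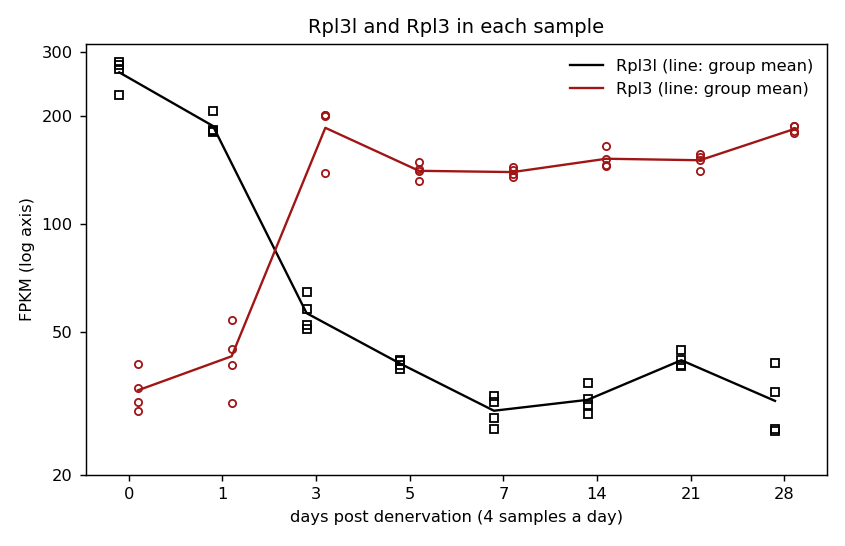
FPKM of Rpl3l (squares) and Rpl3 (circles) in each of the 32 samples on a log axis, by day post denervation, with lines through the group means. Rpl3l lies above Rpl3 in every D0 and D1 sample and below it in every sample from 3 d on; D3a is the low Rpl3 circle at 3 d.

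The acidic stalk proteins Rplp0, Rplp1 and Rplp2 form the flexible arm of the large subunit that recruits elongation factors. Differences between their genes were not tested. Rplp0 had its highest mean at 28 d and went from 484.6, 483.4, 418.7 and 392.2 FPKM in D0 to 648.6, 816.4, 734.2 and 732.5 in D3 and 928.9, 896.2, 1001 and 939.6 in D28, a difference from D0 of 1.08 ± 0.07 at 28 d (adjusted p = 8.4e-13, limma). Rplp1 had the highest mean FPKM of the family (916.0 over all samples) and was at 650 ± 59.7 FPKM in D0, 975 ± 89.6 in D3 and 1024 ± 66.9 in D28, with differences of 0.58 at 3 d, just short of 1.5-fold, and 0.66 at 28 d. Rplp2 was at 50.6, 52.8, 51.2 and 41.4 FPKM in D0, 77.2, 98.7, 89.9 and 89.2 in D3, and 61.1, 79.1, 76.3 and 72.3 in D21. The D3 and D21 samples of Rplp2 all lay above D0, with differences of 0.85 ± 0.11 at 3 d (adjusted p = 4.7e-07), 0.55 ± 0.11 at 21 d (adjusted p = 0.00025, short of 1.5-fold) and 0.63 ± 0.11 at 28 d (adjusted p = 4e-05). The call of Rplp2 at 28 d was lost when the D0 sample C4 was left out (0.55), and Rplp1 at 3 d passed without C1, C2 or D3a.

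Other members have a paralogue of their own. Rpl22 and Rpl22l1 encode near relatives that occupy the same place on the ribosome. Rpl22l1, a low gene with 81 to 221 fragments per sample, was at 3.85, 3.47, 3.23 and 3.67 FPKM in D0, 4.85, 5.13, 5.87 and 5.69 in D1, 6.20, 6.61, 6.82 and 6.23 in D3, and 3.55, 4.83, 3.40 and 3.21 in D14. All its D1 samples lay above D0, and at 14 d 3 of the 4 samples lay within the D0 range or just under it. Its difference from D0 was 0.49 ± 0.14 at 1 d (adjusted p = 0.0096, short of 1.5-fold), 0.71 ± 0.14 at 3 d (adjusted p = 0.00014) and 0.05 ± 0.14 at 14 d, and D14 was below D3 by 0.66 (-0.66 ± 0.14, adjusted p = 0.00051, limma). With a pseudocount of 5 in place of 1, this fall no longer reached 1.5-fold, and after median-ratio scaling the 3 d difference from D0 did not (0.53). Its means in D21 and D28 were 4.77 ± 0.927 and 4.73 ± 1.28 FPKM. Rpl22 was at 45.7 ± 3.75 FPKM in D0, 45.2 ± 2.04 in D1, 76.1 ± 2.39 in D3, 67.5 ± 3.30 in D14, 65.8 ± 3.55 in D21 and 71.8 ± 3.42 in D28, with a difference of 0.73 ± 0.06 at 3 d.

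Rps27 and Rps27l encode a zinc finger protein of the small subunit and its relative, whose gene is a known target of p53. Rps27l was at 98.2, 86.8, 86.5 and 86.1 FPKM in D0, 157.7, 152.9, 165.4 and 165.4 in D3, 224.9, 211.7, 173.0 and 159.2 in D7, and 130.5, 112.1, 112.9 and 134.4 in D28. It was highest at 7 d (1.08 ± 0.09 above D0, adjusted p = 1.1e-10) and at 28 d was 0.45 ± 0.09 above D0 (adjusted p = 0.00022, short of 1.5-fold). Rps27 went from 52.6 ± 2.05 FPKM in D0 to 90.6 ± 2.34 in D3 and 94.0 ± 5.07 in D28 (0.77 and 0.83 above D0), with no such fall. Of the p53 regulator and target genes listed for comparison, Trp53, Mdm2, Mdm4, Cdkn1a and Ccng1, 3 of 5 were called higher and 1 lower at 3 d, when 13.2% and 6.03% of all tested genes were, and 3 and 1 at 28 d (14.2% and 4.1%). After median-ratio scaling the counts were 2 and 1 at 3 d (9.0% and 9.15% of all tested genes) and 3 and 1 at 28 d (6.57% and 8.11%). Cdkn1a, the cell cycle inhibitor p21, was at 3.20 ± 0.319 FPKM in D0, 126 ± 32.8 in D14 and 40.9 ± 4.11 in D28.

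Rpl7l1, a relative of Rpl7 that acts in ribosome assembly, differed early and little, from 13.5, 12.5, 12.7 and 12.9 FPKM in D0 to 16.7, 14.7, 18.1 and 16.3 in D1 and 18.5, 19.04, 19.1 and 18.7 in D3. Every D1 sample lay above D0 (0.32 ± 0.05, adjusted p = 4.9e-06), and no day reached 1.5-fold. Rpl7 went from 149 ± 16.0 FPKM in D0 to 153 ± 1.05 in D1, 259 ± 7.02 in D3 and 305 ± 11.4 in D28 (1.03 ± 0.06 above D0). Rpl39, which lines the exit tunnel of the nascent chain, was 0.73 above D0 at 3 d and 0.99 at 28 d, whereas its relative Rpl39l, known from testis, had 0 to 23 fragments per sample. Rpl36a was 0.92 above D0 at 3 d and 1.03 at 28 d, and its relative Rpl36al had 2 to 22 fragments per sample.

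Several members are known for roles beside the ribosome or for control of it. Rpl5 and Rpl11, which with 5S RNA bind and restrain Mdm2 when free, were highest at 3 d. Rpl11 was at 72.1, 61.2, 61.4 and 64.0 FPKM in D0 and at 139.2, 148.3, 145.2 and 145.1 in D3, 1.15 ± 0.05 above D0 on the log2 scale (adjusted p = 2.7e-16, limma), and Rpl5 was at 82.4 ± 5.92 and 177 ± 5.35 FPKM (1.09 ± 0.05). At 14 d both were slightly below D3, by 0.17 for Rpl11 (-0.17, adjusted p = 0.013) and 0.26 for Rpl5 (-0.26, adjusted p = 0.00024), neither reaching 1.5-fold. Rps6, the substrate of the S6 kinases, was at 181.8, 175.5, 153.4 and 149.3 FPKM in D0, 171.7, 171.9, 197.2 and 199.6 in D1 and 295.3, 342.1, 334.4 and 325 in D3. Its D1 samples overlapped D0 (0.17 ± 0.06, adjusted p = 0.051), and it was 0.97 ± 0.06 above D0 at 3 d (adjusted p = 3e-13). Rps27a, made as a fusion with ubiquitin, went from 70.7 ± 10.8 FPKM in D0 to 151 ± 12.2 in D3 and 167 ± 5.55 in D14 (1.24 ± 0.08 above D0). Rpsa, also known as a laminin receptor, went from 147 ± 12.7 to 285 ± 19.2 in D3 and 305 ± 21.2 in D28, and Rps19, the gene most often altered in Diamond-Blackfan anaemia, from 16.6 ± 1.45 to 35.8 ± 3.53 and 37.6 ± 0.767.

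Within the narrow family range some genes stood at the ends. Apart from Rpl3, the largest differences were those of Rpl12 (1.18 ± 0.07) and Rpl11 at 3 d, of Rpl19 (1.27 ± 0.08) and Rps27a at 14 d, and of Rps21 (1.45 ± 0.10) and Rpl19 (1.33 ± 0.08) at 28 d. Rpl19, a large subunit protein that bridges the subunits, was at 45.3, 36.8, 37.2 and 32.9 FPKM in D0 and 96.7, 93.6, 102.1 and 93.1 in D28, with no overlap. At the other end was Rps2, at 367.1, 341.7, 342.6 and 270.7 FPKM in D0, 352, 491.2, 435.7 and 428.6 in D3, and 409.3, 385.8, 410.5 and 428.6 in D28. Its D3 samples overlapped D0 and it was called on no day, with differences between 0.28 and 0.46 from 3 to 28 d. After median-ratio scaling these lay between -0.11 and 0.13. Rps24 (0.49 at 3 d and 0.72 at 28 d) and Rps15 (0.58 and 0.84) passed the 1.5-fold limit only after 3 d, while Rps14 (-0.21 ± 0.06, adjusted p = 0.012) and Rpl31 (-0.20 ± 0.07, adjusted p = 0.043) were slightly below D0 at 1 d, neither reaching 1.5-fold, and 0.65 and 0.74 above it at 28 d.

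The genes with the highest mean FPKM per subunit, beside the stalk genes and Rps2, were Rpl4 (563 over all samples), Rps3a1 (663) and Rps15 (569). Rpl4 was at 379.1, 357.7, 332.2 and 346.5 FPKM in D0 and 657.2, 640.4, 638.9 and 671.3 in D3 (0.88 ± 0.05), and Rps3a1 rose by 0.79 ± 0.07 at 3 d and 0.90 ± 0.07 at 28 d. FPKM is per length of exon, so these levels can be set beside each other, within the limits of the exon models.

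In the comparisons of D14 with D3 and of D28 with D14, the shares of members that changed were near or below those of all tested genes. The difference in shares was not tested, and D5, D7 and D21 were not compared with D3. From 3 to 14 d, 16 members were higher and 9 lower at an adjusted p under 0.05 with no fold limit, near the shares of all tested genes (23.0% and 11.0%). Of the 83 members, 58 had a positive difference (median 0.06), and after median-ratio scaling 20 did (median -0.09). The largest positive difference was that of Rps21 (0.51 ± 0.10, adjusted p = 0.0002). Rps21, a small protein of the small subunit, was at 82.9, 66.3, 67.2 and 76.3 FPKM in D0, 111.4, 112.2, 112.0 and 108.3 in D3, 151.1, 176.9, 147.1 and 158.0 in D14, and 205.9, 182.7, 219.2 and 195.6 in D28. Its D0, D3, D14 and D28 samples did not overlap. The 3 d call of Rps21 was lost without the D0 samples C2 or C3 (0.56 in each case).

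From 14 to 28 d, 0 members were higher and 2 lower at an adjusted p under 0.05 with no fold limit (1.6% and 2.2% of all tested genes, so the members' count is at the background), Rps20 and Rps27l. Rps20, whose protein joins the head of the small subunit, was at 103.8, 104.2, 112.1 and 105.3 FPKM in D14, and at 83.3, 75.01, 83.95 and 85.1 in D28, against 53.1, 47.6, 45.7 and 51.9 in D0. The D28 samples lay between those of D0 and D14 with no overlap. The difference of D28 from D14 was -0.37 ± 0.07 for Rps20 (adjusted p = 0.0014, limma) and -0.37 ± 0.09 for Rps27l (adjusted p = 0.019), and after median-ratio scaling the adjusted p was 0.057 for both. Rpl41, the smallest ribosomal protein, was at 239 ± 32.9 FPKM in D3, 315 ± 19.6 in D14 and 338 ± 19.3 in D28, against 154 ± 17.4 in D0. Rps20 and Rpl41 were picked for description after their values had been seen.

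**Figure D5:**
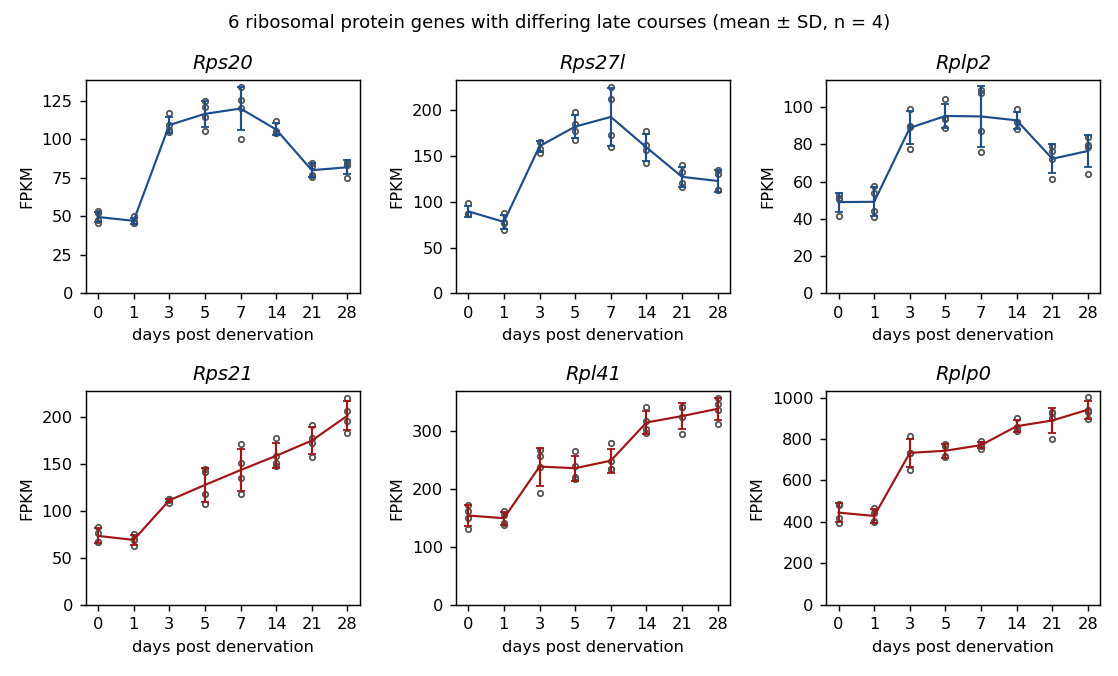
FPKM by day post denervation for Rps20, Rps27l and Rplp2 (upper row) and Rps21, Rpl41 and Rplp0 (lower row); points are samples, lines join group means and bars are SD (n = 4). All 6 genes rise between 1 and 3 d; Rps20 falls from a mean of 120 FPKM at 7 d to 81.8 at 28 d, while Rps21 goes from 143 to 201.

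Members with few fragments or with copies elsewhere are uncertain. A mean FPKM under 10 was found for 6 of the 83 genes, Rpl13a, Rpl22l1, Rpl24, Rpl36al, Rpl39l and Rps10, and the other 77 had 10 or more. Rpl24 had 1 to 11 fragments per sample, Rps10 had 7 to 28 and Rpl13a, known from interferon-gated translation control, had 14 to 82, although their proteins are part of every ribosome. In GENCODE release 21 the exons of Rpl13a share 748 bases with Gm45713 and small RNA genes on the same strand, those of Rpl24 share 484 with Gm28037, those of Rps10 share 475 with RPS10-NUDT3 and those of Rpl36al share 332 with Gm49383. Rpl13a was at 0.726 ± 0.263 FPKM in D0, 1.51 ± 0.268 in D3 and 1.65 ± 0.505 in D28, and was called higher on 28 d alone (0.61 ± 0.12, adjusted p = 7.3e-05, limma). That call was lost after median-ratio scaling (0.43) and without the D0 sample C4 (0.52) or D28c (0.50). How reads in such shared exons were counted was not given in the sources used here. Processed copies named after 56 of the members made up 193 rows of the table, and 1 of them, Rps10-ps2, was at 96.3 ± 7.59 FPKM in D0 and 160 ± 25.04 in D3, where Rps10 itself was between 0.203 and 0.734 FPKM in all samples. With the copies added to their parent genes, between 69 and 74 members were called higher on the days from 3 to 28 d (11.8% to 15.4% of all tested genes), an alternative added after the data were seen. Exons of 19 members, some of them among those named above, overlap a gene on the other strand, and whether the counting used strand was not given. Fau, which encodes Rps30 fused to a ubiquitin-like protein and lies outside the symbol rule, was at 108 ± 10.1 FPKM in D0 and 180 ± 18.9 in D3 (0.73, adjusted p = 1.2e-08).

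Genes that build the ribosome were in part already higher at 1 d. Of 30 ribosome biogenesis factors, 17 were called higher and 0 lower at 1 d, 26 and 0 at 3 d, and 16 and 0 at 14 d, when 6.34%, 13.2% and 14.6% of all tested genes were higher. The medians were 0.65, 1.13 and 0.64 on the log2(FPKM + 1) scale, and D14 was higher than D3 for 1 (6.88% of all tested genes) and lower for 11 (3.57%). After median-ratio scaling the counts of higher genes were 10, 20 and 4, against 4.14%, 9.0% and 6.56% of all tested genes. These shares of all genes at 1 and 3 d apply to the lists that follow too. Gnl3, the nucleolar GTPase nucleostemin, was at 5.21 ± 0.653 FPKM in D0, 16.7 ± 0.599 in D1, 26.3 ± 6.24 in D3 and 9.03 ± 0.639 in D14. Ncl, nucleolin, was at 21.3 ± 1.14, 34.8 ± 1.45, 63.4 ± 5.88 and 32.4 ± 1.65 FPKM, and Ddx21, a nucleolar helicase, at 12.6 ± 0.569, 30.8 ± 1.44, 44.4 ± 4.26 and 22.4 ± 0.769 FPKM on the same days. Of 15 genes of RNA polymerase I and its factors, which make ribosomal RNA, 7 were higher at 1 d and 10 at 3 d, with 0 lower (4 and 8 after median-ratio scaling). Of 13 chaperones and importers of ribosomal proteins, 4 were higher at 1 d and 9 at 3 d, with 0 lower (1 and 7 after median-ratio scaling). A test of the difference in timing between these lists and the ribosomal protein genes was not made.

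Other genes whose mRNAs are known to carry the pyrimidine tract were also higher in part. Of 17 such genes, 4 were higher at 1 d, 13 at 3 d and 10 at 28 d, with 0 lower, and after median-ratio scaling 0, 9 and 3. At 28 d, 14.2% of all tested genes were higher and 4.1% lower, and 6.57% and 8.11% after median-ratio scaling, which also applies to the lists that follow. Of 10 elongation factor genes, 0 were higher or lower at 1 d, 5 higher and 0 lower at 3 d, and 4 higher and 1 lower at 28 d. After median-ratio scaling these counts were 0 and 1, 4 and 1, and 2 and 2. Eef1a1 and Eef1a2 encode the common and the muscle form of elongation factor 1 alpha. Eef1a1 was at 344 ± 38.6 FPKM in D0, 868 ± 216 in D3 and 2339 ± 205 in D28, and Eef1a2 at 633 ± 61.3, 485 ± 63.7 and 274 ± 27.3. By limma Eef1a1 was 2.77 above D0 at 28 d (adjusted p = 2.1e-15) and Eef1a2 was -1.20 (adjusted p = 5e-11), and Eef1a1 exceeded Eef1a2 in the D3 group mean and after. Of 17 regulators of these mRNAs, 6 were higher at 1 d, 8 at 3 d and 6 at 28 d, where 1 was lower, and after median-ratio scaling 6, 7 and 2 were higher, with 1 lower at 28 d. Among them Eif4ebp1, an inhibitor of cap-dependent translation, was at 20.1 ± 1.11 FPKM in D0, 92.8 ± 10.8 in D1, 223 ± 41.6 in D3 and 32.8 ± 1.67 in D28, and Larp1 at 16.7 ± 2.01, 29.3 ± 3.12, 33.8 ± 1.14 and 18.2 ± 1.45.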

How the data were processed

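RNA was sequenced from 32 GAS muscle samples in 8 groups of 4. The authors deposited FPKM values, 1 per gene and sample, for 33397 genes, and per the labels HISAT2 2.1.0, CASAVA, DESeq2 and GRCm38 were used; the counter and annotation are not given in the sources used here. Gene names came from GENCODE release 21, which matched 33356 identifiers. Whole fragments were recovered from FPKM and exon length (in each sample 99.26% to 99.34% of values under 200 fragments lay within 0.02 of a whole number), which gave the depth per sample; they cover counting error only. Table columns name the day and a letter that no label ties to an animal.

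Genes that reached 0.1 FPKM in 4 or more samples were tested on log2(FPKM + 1) with limma 3.58.1 in R 4.3.3 (lmFit, eBayes with a variance trend) over all 32 samples, and p-values were adjusted by Benjamini-Hochberg over all genes tested. A fold change on this scale understates that of low genes. The ratio of Rpl3l to Rpl3 was tested by exact permutation. The step was tested on simulated data. Python 3.11.15, pandas 2.3.3, numpy 2.4.6, scipy 1.17.1 and matplotlib 3.10.9 were used otherwise.

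The members, gene lists and tests were chosen with earlier results of these data known. Named genes were Rpl3, Rpl3l, paralogue pairs, stalk genes, Rpsa, Rps27a, Rpl5, Rpl11, Rps6, Rpl13a and Rps19, the 3 highest per subunit, and the 3 largest and 3 smallest differences at 1, 3, 14 and 28 d among members whose mean FPKM was 10 or more. Rpl10, Rps18, Rps20, Rps26, Rps28 and Rpl41 were named after their values were seen. Rpl10l was not analysed here. Promoter and start sequences came from RefSeq (GRCm38.p6). Replicates of a group differed by more than sampling noise (chi-square per degree of freedom at least 3.76). Alternatives covered the thresholds, pseudocount, filter, scaling, samples in the fit, limma-voom, summed copies and leaving out each sample.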

Additional observations from a re-analysis of the deposited data

Results flagged for a closer look

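Within groups of 4, the gap of 1 sample to the others exceeded Dixon's 95% limit in 6 of 136 groups examined, where chance gives about 1 in 20. Rpl3 was at 138.6 FPKM in D3a against 199.3 to 200.9 in the other D3 samples, and Rpl3l at 205.3 FPKM in D1c against 179.5 to 182.3. Rpl22l1 was at 6.16 FPKM in D21b against 4.24 to 4.38, and Rps27l at 98.2 in C1 against 86.1 to 86.8. Rps27 was at 87.4 FPKM in D14a against 96.7 to 98.4, and Rps19 at 42.4 in D14b against 36.0 to 37.0.

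The difference between days was itself tested for 3 results. D14 was below D3 by 0.66 on the log2(FPKM + 1) scale for Rpl22l1 (-0.66) and by 0.78 for Rpl3l (-0.78), and 74 members were higher at D3 than at D1 (6.63% of all tested genes).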

How the results depend on the processing

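The values rest on whole fragments (14199902 to 17561584 a sample), and the 6 members with a mean FPKM under 10 rest on few of them, 0 to 221 a sample for each gene. Why these 6 are low was not tested. From 3 to 28 d the count of members called higher turned mainly on the scaling. After median-ratio scaling it was 40 in D3 (9.0% of all tested genes), 11 in D5 (6.7%), 20 in D7 (7.15%), 26 in D14 (6.56%), 29 in D21 (6.43%) and 38 in D28 (6.57%), and 1 member was lower at 1 d (4.68%). After quantile normalization it was 43 in D3 (8.65% of all tested genes), 42 in D5 (7.26%), 45 in D7 (7.53%) and 43 for D3 against D1 (5.18%). At 1 d it was 1 with TPM (12.1%), 4 with limma-voom (11.3%), 3 with a pseudocount of 0.1 (11.3%) and 5 by adjusted p alone (20.4%), which also gave 3 lower members (9.01%). By adjusted p alone D14 against D3 gave 16 higher (23.0% of all tested genes) and 9 lower (11.0%), and D28 against D14 gave 2 lower (2.2%). With a pseudocount of 5, 1 was lower for D14 against D3 (1.99%). The cause of these changes was not tested. Without single samples the count of higher members ran from 65 to 75 in D3, 65 to 71 in D5, 67 to 72 in D7, 73 to 74 in D14, 66 to 71 in D21 and 71 to 73 in D28, with 1 lower throughout, and the counts at 1 d stayed at 0. With all samples, 13.2%, 14.9%, 15.4%, 14.6%, 11.8% and 14.2% of all tested genes were higher on these days from D3 to D28. The shares of all genes without single samples are not given here. Summing copies into the parent genes, the filter on low values, the samples in the fit and each single sample changed no count by more than 1.5 times. The log2 ratio of Rpl3l to Rpl3 stayed below D0 under the alternatives run for it (-4.79 to -4.50 at 3 d without single samples), and no named gene called at 3 or 28 d changed direction under the alternatives run. The direction turned for named genes that were not called. After median-ratio scaling Rps2 was at -0.0693 and Rpl22l1 at -0.0030 at 28 d, and without single samples Rpl39l ran from -0.171 to 0.0291 at 3 d and from -0.104 to 0.0220 at 28 d. No paired analysis was possible because the labels do not tie the letters of the columns, or the numbers of C1 to C4, to replicate numbers. The planned fit with a replicate block was not run.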
